A study of Mus musculus with 4 samples.

Results

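The interferon regulatory factors (IRFs) are a family of transcription factors, and 8 of their genes were examined in mouse T-helper 17 (Th17) cells: Irf1, Irf2, Irf3, Irf4, Irf5, Irf7, Irf8 and Irf9. They were taken by name from the 50600 gene identifiers in the count tables, and all 8 were matched. RNA was sequenced in 4 libraries of a single group, numbered in the labels as biological replicates 1 to 4, from primary Th17 cells of C57BL/6NJ mice with no allele or treatment named. The labels mark sex as not collected and age as unknown, and give the 4 libraries different biosamples but a common donor identifier. They do not say whether those biosamples were separate animals or cultures, so each SD and p-value below covers the spread between libraries, which may be technical. The assay is called total RNA-seq in the labels, while the linked library protocol is named for poly(A)+ RNA, and the output names inside the files carry a tag of 2 hours without an event from which hours were counted.

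IRF proteins share a DNA-binding domain that recognises GAAA repeats, and the members differ in what switches them on and in which partners they need. IRF3, IRF5 and IRF7 are activated by phosphorylation downstream of sensors of foreign nucleic acid, IRF9 is the DNA-binding subunit of the interferon-activated complex ISGF3, and IRF1 and IRF2 bind the same elements as activator and antagonist. IRF4 and IRF8 are the lymphoid and myeloid members, bind DNA weakly on their own, and act with BATF and other AP-1 proteins or with PU.1. In mouse T cells IRF4 is induced by antigen receptor signals and is required for Th17 differentiation, whereas IRF8 has been described as restraining it.

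Fragment totals were 36298276, 40652146, 26953724 and 25847970 in replicates 1 to 4. The T cell marker list was present in full (8 of 8 genes at 1 TPM or more), led by Trac. TPM is the fragment count per base of exon, scaled to the same total in every library. Of 8 Th17 markers, 5 reached 1 TPM, and the receptor genes Il23r and Ccr6 and the cytokine gene Il22 did not. Il17a, the signature cytokine gene, stood at 5.65 ± 1.20 TPM (SD, n = 4). Of the 8 Th17 markers Stat3 alone lay above Il17f, which averaged 12.4 TPM. Since the samples are bulk RNA, fewer cells of a type and less RNA per cell cannot be told apart in any level below.

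Each of the 8 Irf genes reached a mean of 1 TPM, against 45.2% of 21764 protein coding genes. Summed over the family, the libraries held 3522 ± 516 TPM (2992 to 4165), which was 0.475% ± 0.0570 of all fragments (SD, n = 4). The family spanned a wide range: Irf4 ranked 60 and Irf5 ranked 9619 among protein coding genes. The median member stood at 207 TPM, while the median over all protein coding genes was 0.279 TPM and the median over those at 1 TPM or more was 24.9 TPM. The order by mean TPM was Irf4, Irf1, Irf7, Irf8, Irf9, Irf3, Irf2 and Irf5.

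**Figure D1:**
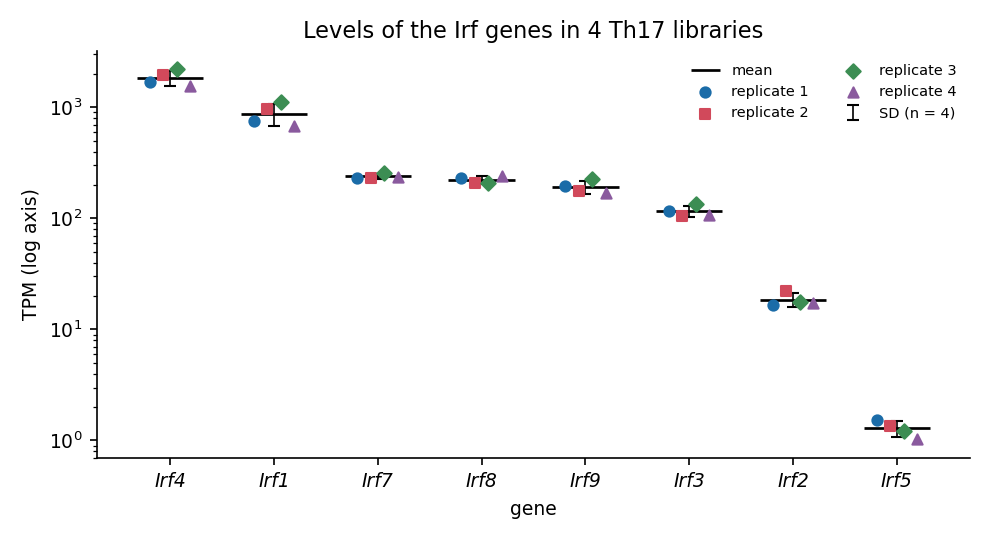
Level of each Irf gene in TPM (log axis), ordered by mean; points are the 4 libraries by replicate, the horizontal line is the mean and the bar the SD (n = 4). Irf4 sits at 1544 to 2205 TPM, Irf7, Irf8 and Irf9 lie between 169 and 259 TPM, where Irf8 overlaps both and Irf7 stays above Irf9, and Irf5 lies near 1 TPM.

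Irf4, the member tied to antigen receptor signalling and to Th17 differentiation, was the highest. The gene lies at chr13:30749226-30766927 on the plus strand (mm10). Its levels were 1703, 1972, 2205 and 1544 TPM in replicates 1 to 4, a mean of 1856 ± 292 TPM (SD, n = 4). Every library placed it above every other Irf gene, and its highest library exceeded its lowest by 1.43-fold. Irf4 rested on 333135 fragments in all, and none of its 31-mers occurred in a transcript of another gene. It lay above 99.7% of protein coding genes and held 52.6% ± 0.803 of the summed Irf TPM, with 51.6% in the lowest library and 53.5% in the highest. The genes beside it were quiet or ordinary: the pseudogene Gm11370, 17189 bases below, had no fragment, and Exoc2, an exocyst subunit gene 46991 bases above, stood at 47.5 ± 5.83 TPM.

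Irf8, the relative of Irf4 best known from dendritic cells, macrophages and B cells, was also present. It lies at chr8:120736358-120756694, plus strand. Replicates 1 to 4 held 230, 208, 209 and 242 TPM of Irf8, a mean of 222 ± 17.0 TPM (SD, n = 4). Replicates 4 and 1 were the higher ones, the reverse of Irf4, for which these were the lower libraries. How common that pattern is among all genes was not computed. Within each library Irf4 exceeded Irf8 by 6.38-fold to 10.6-fold per length. Irf8 rested on 59331 fragments, and as for Irf4 none of its 31-mers was shared with another gene.

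Because Irf8 is a marker of other blood cells, the marker lists of those cells are given beside it. Of 15 myeloid and dendritic genes 3 reached 1 TPM (Cd74, Cd68 and H2-Aa), and the summed list ranged from 20.4 to 29.5 TPM over the libraries. The dendritic markers Clec9a and Siglech had no fragment in any library, where 3 fragments, the upper limit a count of 0 allows, equal 0.0738 to 0.116 CPM, fragments scaled to a common library total without a length. The macrophage receptor gene Csf1r had 2 fragments and the dendritic receptor gene Flt3 had 7. Of 10 B cell genes 3 reached 1 TPM (Ighm, Igkc and Cd79a), the summed list ranged from 126 to 156 TPM with Ighm at 138 ± 12.6 TPM, and Ms4a1, which encodes CD20, was at 0. Among the other lists, 4 of 7 NK cell genes (summed 57.1 to 76.8 TPM, Ncr1 at 0) and 2 of 4 CD8 T cell genes (24.2 to 34.2 TPM) reached 1 TPM, and all 8 erythroid and platelet genes were at 0. The sum of the 15 myeloid markers and that of the 10 B cell markers were each below the level of Irf8 in each library. Levels of different genes do not give a share of cells, and the part of myeloid or B cells in the Irf8 level was not tested.

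The same lists bear on the partner proteins. Of 17 genes for DNA-binding partners of IRF4 and IRF8, 13 reached 1 TPM, with a list median of 160 TPM. The highest were the AP-1 genes Junb at 4039 ± 369 TPM, Jund at 1800 ± 334 TPM and Fosl2 at 1308 ± 102 TPM (SD, n = 4 each). Of the 31-mers of Jund, 50.1% occur in transcripts of other genes on either strand, which leaves the level of Jund uncertain. Whether these are copies elsewhere or overlapping genes was not tested. Batf, whose product pairs with JUN proteins and IRF4 at composite AP-1 and IRF elements in T cells, stood at 684 ± 55.8 TPM. The 4 partners under 1 TPM were Batf3 with no fragment, Spi1, which encodes PU.1, with 3 fragments, Spib with 21 and Batf2 with 40. Batf and these last 3 were picked out after their values were seen. None of the 13 partners that could be tested varied between libraries beyond the trend described below.

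Irf1, the activator of the IRF1 and IRF2 pair and a gene induced by interferon gamma, came next after Irf4. Its position is chr11:53770014-53778374, plus strand. It stood at 753, 972, 1111 and 676 TPM in replicates 1 to 4, which gave 878 ± 200 TPM (SD, n = 4) over 132926 fragments. Replicates 3 and 2 were high and replicates 1 and 4 low, by up to 1.64-fold, the widest range of any member. Irf1 ranked 144 among protein coding genes and held 24.7% ± 2.12 of the summed Irf TPM. Irf4 and Irf1 together made up 77.3% ± 2.85 of it.

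**Figure D2:**
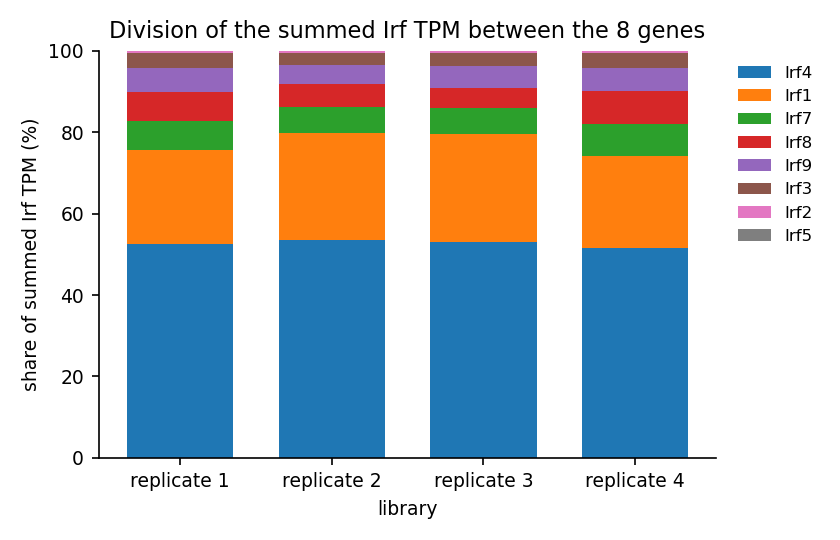
Division of the summed Irf TPM (percent, from 0 to 100) between the 8 genes in each of the 4 libraries. Irf4 holds 51.6% to 53.5% in every library, and Irf4 with Irf1 hold 74.2% to 79.9%.

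Irf2, which binds the same sites and opposes IRF1, was far lower. It lies at chr8:46739732-46847458, plus strand. Its levels were 16.7, 22.4, 17.7 and 17.3 TPM in replicates 1 to 4, a mean of 18.5 ± 2.58 TPM (SD, n = 4) on 5307 fragments. Replicate 2 stood above the other libraries, which lay within 16.7 to 17.7 TPM. Irf2 was below the 24.9 TPM median of protein coding genes that reached 1 TPM, and of the members Irf5 alone was lower.

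The start regions of Irf1, Irf2 and Irf8 are shown because, of the 8 genes, these held the interferon and cytokine response motifs that were searched. The windows run from 250 bases before to 50 after each start in RefSeq (GRCm38.p6), with 11 windows for the 8 genes among 32851 windows in all, searched on both strands. All 4 stretches are on the plus strand, and capitals mark the motif matches.
Irf1, chr11:53769909-53770013: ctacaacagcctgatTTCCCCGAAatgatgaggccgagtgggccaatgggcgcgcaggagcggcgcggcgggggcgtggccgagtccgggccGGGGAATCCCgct
Irf2, chr8:46739495-46739544: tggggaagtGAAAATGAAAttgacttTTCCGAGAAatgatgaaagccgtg
Irf2, chr8:46739713-46739744: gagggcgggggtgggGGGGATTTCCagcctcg
Irf8, chr8:120736172-120736228: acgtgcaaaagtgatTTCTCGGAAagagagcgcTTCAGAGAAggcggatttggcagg
The STAT motif GAS, written TTCNNNGAA, occurred once for Irf1, 90 bases before the start, once for Irf2, 224 bases before it, and at 2 places for Irf8, 171 and 153 bases before it. It was present in 8.30% of all windows. The interferon-stimulated response element GAAANNGAAA, the letters to which IRF proteins and ISGF3 bind, was found in the Irf2 window 241 bases before the start and in 3.44% of all windows. A kappaB motif, the NF-kappaB consensus, began 13 bases before the Irf1 start, where its letters match on both strands at the same place, and 17 bases before the Irf2 start, against 8.46% of all windows. No motif overlapped another. The AP-1 motif TGANTCA (7.81% of all windows) and the composite AP-1 and IRF motifs TGANTCANNNNGAAA (0.119%) and GAAA directly followed by TGANTCA (0.125%) did not occur in these letters in any of the 11 windows, Irf4 included. These matches describe the sequence only, since binding was not measured.

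Irf7, the interferon-inducible member that acts downstream of nucleic acid sensors, followed Irf1 by mean. The gene is at chr7:141262706-141266481 on the minus strand. Replicates 1 to 4 held 230, 229, 259 and 236 TPM, a mean of 239 ± 13.9 TPM (SD, n = 4) on 34011 fragments. With 1.13-fold between the highest and the lowest library, its range was the narrowest of the family. Its exons share 45 bases with Phrf1 on the opposite strand, 1.19% of their length.

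Irf3, the ready-made sensor-activated factor that cells carry before any interferon is made, stood lower than Irf7. It lies at chr7:44997648-45002848, plus strand. Its levels were 117, 106, 136 and 107 TPM in replicates 1 to 4, which averaged 116 ± 14.2 TPM (SD, n = 4) on 15058 fragments. Replicate 3 was the highest and the other 3 libraries lay within 106 to 117 TPM. Irf7 exceeded Irf3 by 2.06 ± 0.149-fold within libraries. Scaf1, on the opposite strand, lies 99 bases beyond Irf3 and stood at 46.4 ± 5.49 TPM. Bcl2l12, also on the opposite strand, shares 88 exon bases with Irf3 and stood at 7.83 ± 1.71 TPM.

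Irf5, the sensor-activated member best known from myeloid cells and B cells, was close to the 1 TPM threshold. It lies at chr6:29526625-29541871, plus strand. It stood at 1.54, 1.35, 1.23 and 1.02 TPM in replicates 1 to 4, on 47, 48, 27 and 23 fragments, a mean of 1.29 ± 0.216 TPM (SD, n = 4). All 4 libraries were above 1 TPM, in an unbroken run of values. Irf5 also had the family's highest share of 31-mers found in a transcript of another gene, at 12.3%. Both strands were read, so overlap with a gene on the opposite strand counts in that share, and its part was not computed. On the opposite strand Tnpo3 covers 411 bases of the Irf5 exons, 14.1% of their length. Tnpo3 had 17084 fragments over the 4 libraries against 145 for Irf5. The strand setting of the counting separates the pair, and how many fragments were given to the wrong strand was not tested.

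Irf9, the DNA-binding subunit of ISGF3, stood among the middle members. It lies at chr14:55603571-55610030, plus strand. Its levels were 195, 175, 227 and 169 TPM in replicates 1 to 4, a mean of 191 ± 26.0 TPM (SD, n = 4) on 38861 fragments. Replicates 3 and 1 were the higher and replicates 2 and 4 the lower libraries. Rnf31, a ubiquitin ligase gene at 108 ± 17.0 TPM, lies on the same strand and shares 123 exon bases (2.28%) with Irf9, and fragments in that stretch were counted for neither gene.

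Differences between members were taken within each library on the log2(TPM + 1) scale, with signs flipped over the 4 libraries in an exact permutation test (two-sided) and Benjamini-Hochberg adjustment over 28 pairs. The smallest p that 4 libraries allow is 0.125, so no pair could pass 0.05, and the size and its spread carry the comparison. In 26 of the 28 pairs the difference had the same sign in all 4 libraries and the ranges of TPM did not overlap; each of these pairs had p = 0.125 by the exact permutation test (adjusted p = 0.135 by Benjamini-Hochberg). Irf4 exceeded Irf1 by 1.09 ± 0.10 on that scale, or 2.14 ± 0.156-fold in TPM. Irf1 exceeded Irf7 by 1.85 ± 0.29, which was 3.67 ± 0.710-fold.

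By union exon length, the members that could not be separated were Irf7 from Irf8 and Irf8 from Irf9. The difference of Irf7 minus Irf8 was 0.10 ± 0.16, with Irf7 higher in 3 of 4 libraries (exact permutation p = 0.375). Irf8 minus Irf9 came to 0.22 ± 0.26, with Irf8 higher in 3 of 4 libraries (exact permutation p = 0.25, adjusted p = 0.259 by Benjamini-Hochberg). By the same length Irf7 was nevertheless above Irf9 in all 4 libraries, by 0.32 ± 0.13. Further down, neighbours in the order were separated in every library: Irf9 exceeded Irf3 by 0.71 ± 0.04, Irf3 exceeded Irf2 by 2.59 ± 0.30 and Irf2 exceeded Irf5 by 3.09 ± 0.22. Irf9 minus Irf3 had the smallest SD of the 28 differences, and Irf1 minus Irf8, at 1.95 ± 0.43, the largest. From end to end of the order, Irf4 exceeded Irf5 by 1107-fold to 1797-fold in TPM.

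The places of Irf7, Irf8 and Irf9 depended on the length used. With the length of the longest annotated transcript in place of the union of all exons, Irf8 stood at 366 ± 28.1 TPM and Irf7 at 225 ± 12.6 TPM, and Irf7 minus Irf8 became -0.70 ± 0.16 on the log2(TPM + 1) scale, below 0 in all 4 libraries. Irf8 minus Irf9 became 0.76 ± 0.26, above 0 in all 4 libraries, so that 27 of the 28 pairs then had the same sign in every library. Irf9 then stood at 216 ± 28.8 TPM, close to Irf7. By CPM, without a length, the mean of Irf9 (301 ± 31.2) was above that of Irf7 (263 ± 9.65). The order of Irf7 above Irf9 thus rests on the length used. The union exon length of Irf8 is 7055 bases and its longest transcript 3469 bases, while for Irf7 the lengths are 3776 and 3240 bases. The same change brought Irf1 to 1324 ± 300 TPM and Irf4 to 1489 ± 232 TPM, their longest transcripts being 2137 and 4764 bases against union lengths of 3976 and 4715 bases. The share of Irf4 in the summed TPM became 39.0% ± 0.642. Irf2 then stood at 28.04 ± 3.95 TPM. Which transcripts the cells make cannot be read from counts per gene.

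**Figure D3:**
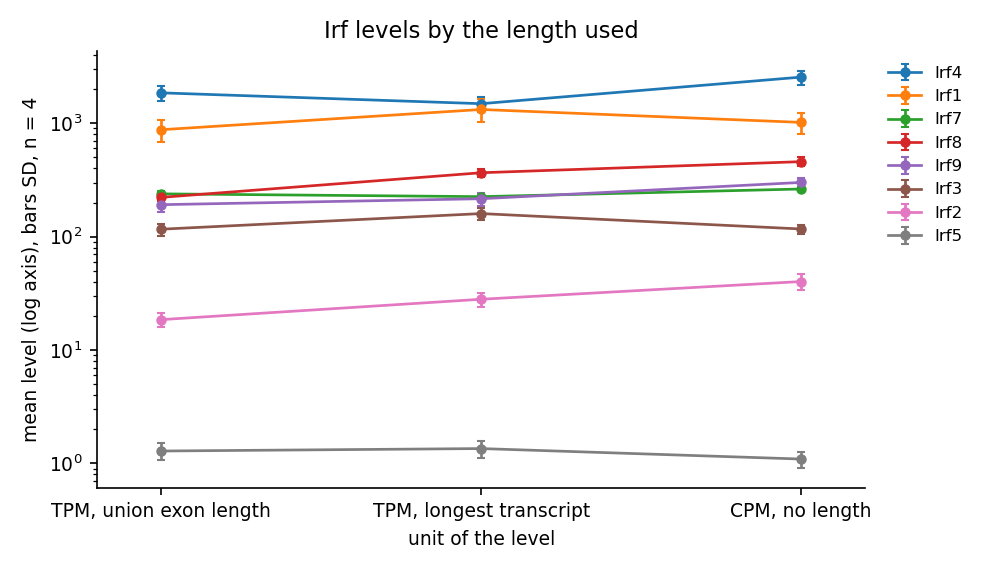
Mean level of each Irf gene (log axis, bars SD, n = 4) as TPM by union exon length, TPM by longest transcript, and CPM without a length; lines join the values of 1 gene. Irf4 stays first and Irf5 last, Irf8 passes Irf7 with the longest transcript, and Irf1 approaches Irf4 there.

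Variation between libraries was tested against the trend of all genes, with edgeR's negative binomial deviance of a fit with an intercept only and Benjamini-Hochberg adjustment over all 11567 genes tested. All 8 Irf genes could be tested, none was called and none had an unadjusted p under 0.05, beside 94 genes called, 0.813% of those tested, and 692 genes at an unadjusted p under 0.05. The deviance per degree of freedom was highest for Irf1 at 1.88, above 88.2% of tested genes. It was lowest for Irf7 at 0.0427, with 1.95% of tested genes lower, against a median of 0.630 over all tested genes. The edgeR adjusted p was 1.0 for every member. A p above the threshold does not show that a gene's level was the same in the 4 libraries.

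The libraries that were high differed from member to member, though none of these deviations passed the test. After TMM scaling of the fragments, Irf1 deviated from its mean by 0.25 and 0.22 on the log2 CPM scale in replicates 3 and 2, and by -0.19 and -0.28 in replicates 1 and 4. Irf4 went the same way at 0.14 and 0.15 in replicates 3 and 2, and at -0.11 and -0.18 in replicates 1 and 4. By contrast, Irf8 was at -0.21 and -0.05 in replicates 3 and 2, and at 0.06 and 0.20 in replicates 1 and 4. Irf9 and Irf3 both had their highest value in replicate 3, at 0.13 and 0.12, and Irf2 had its highest in replicate 2, at 0.33.

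The TPM of Irf4 and Irf1 took the same order of libraries, with replicate 3 highest, then 2, 1 and 4. That order is common: 1428 of the 11567 tested genes (12.3%) had it, so it was not particular to the family. By TPM, replicates 3 and 2 were the higher pair for Irf1, Irf2 and Irf4, and for 27.0% of all tested genes. These orders depend on the scale. After TMM scaling, replicate 3 was the lowest library for Irf2 (-0.17), and Irf4 was highest in replicate 2. With 4 libraries, no correlation between members was computed.

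**Figure D4:**
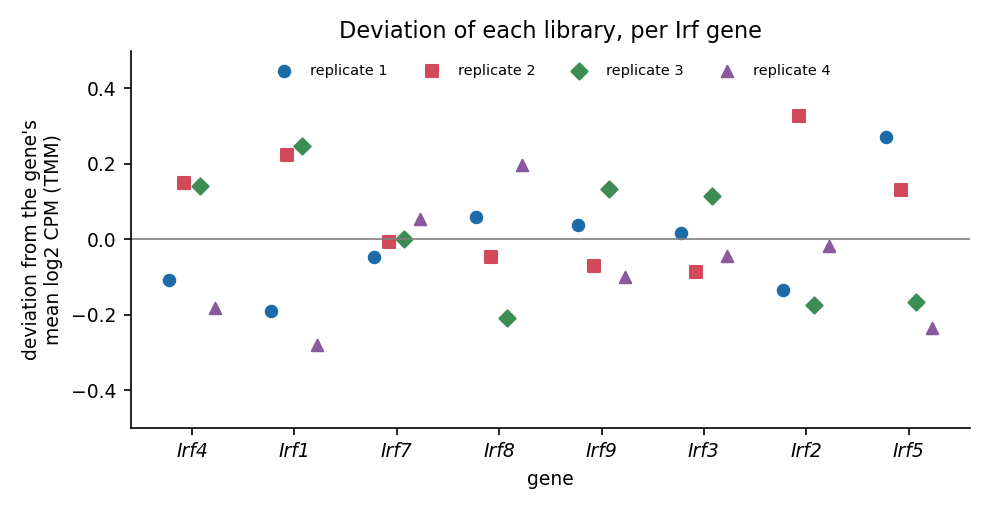
Deviation of each library from the gene's mean log2 CPM after TMM scaling, for the 8 Irf genes; points are the 4 libraries by replicate and the line marks 0. Irf1 and Irf4 are above 0 in replicates 2 and 3 and below it in replicates 1 and 4, Irf8 shows the opposite, and Irf7 lies between -0.05 and 0.05.

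By the root mean square difference in log2(TPM + 1) over the 4 libraries, the protein coding genes with levels most like each member were as follows. Irf4 was nearest to Ddx5, an RNA helicase gene at 1931 ± 236 TPM (difference 0.09), and to Hspa5, a chaperone gene of the endoplasmic reticulum at 1848 ± 82.7 TPM (0.18). For Irf1 they were Arhgap45 (0.13) and Socs3 (0.15), and Socs3, which encodes an inhibitor of cytokine signalling, stood at 908 ± 138 TPM. Irf8 came closest to the chaperonin gene Tcp1 (0.03) and to Ppp2cb (0.04), Irf7 to Sf3b2 (0.04) and Prkag1 (0.05), and Irf9 to Mllt6 (0.06) and Dock2 (0.07). Irf3 was nearest to Fam91a1 (0.03) and Casc3 (0.04), Irf2 to Cebpb and Rdh14 (0.06 each), and Irf5 to Ptpn3 (0.07) and Ydjc (0.08). Likeness of level over 4 libraries was all that was measured.

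The genes around the family were read in 8 lists, and family and lists together held 123 distinct genes, of which 103 reached 1 TPM. The first concerned the signals that reach IRF9 and IRF1: all 10 genes for the interferon receptors, their kinases and ISGF3 reached 1 TPM, with a median of 145 TPM. Jak1, a kinase shared by many cytokine receptors, stood at 683 ± 18.3 TPM, Ifngr1, a chain of the interferon gamma receptor, at 255 ± 28.7 TPM, and Tyk2, a kinase of the interferon alpha and beta receptor, was the lowest at 29.8 ± 4.13 TPM. Of 9 interferon genes none reached 1 TPM and 8, among them Ifnb1, Ifna1 and Ifnl3, had no fragment counted in any library. None of the 31-mers of Ifnb1 occurs elsewhere, but 88.3% of those of Ifna1 and 51.8% of those of Ifnl3 do, and fragments that align to several genes were not counted, so a 0 for these copies is uncertain. Ifng, the T cell interferon, stood at 0.548 ± 0.318 TPM on 26 fragments, with 22.6% of its 31-mers shared with another gene.

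Of 22 genes for nucleic acid sensors, adaptors and kinases upstream of IRF3, IRF5 and IRF7, 19 reached 1 TPM, with a median of 37.0 TPM. The highest were Myd88, the adaptor of most Toll-like receptors, at 284 ± 16.9 TPM, Tmem173, which encodes STING, at 162 ± 11.3 TPM, and Ddx58, which encodes the RNA sensor RIG-I, at 120 ± 7.07 TPM. The 3 genes below 1 TPM were all Toll-like receptors of nucleic acid: Tlr8 had no fragment, Tlr9 had 2, and Tlr3 stood at 0.491 ± 0.292 TPM. The other Toll-like receptor gene in the list, Tlr7, stood at 7.19 ± 0.387 TPM. Tlr3, Tlr7 and Tlr9 were picked out after their values were seen. None of the 20 genes tested in this list was called as varying.

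The interferon-stimulated genes, many of which carry the response element bound by ISGF3 and IRF proteins, all reached 1 TPM (20 of 20), with a median of 46.0 TPM. They spread from Isg15, a ubiquitin-like protein, at 406 ± 69.6 TPM, through Rtp4 at 282 ± 24.3 TPM and Ifit1, an RNA-binding antiviral protein, at 247 ± 49.8 TPM, down to Mx1 at 1.81 ± 0.560 TPM. Shared 31-mers made up 13.1% for Isg15, 12.5% for Rtp4 and 10.8% for Ifit1. Their summed level was 1774, 1947, 1674 and 1945 TPM in replicates 1 to 4, highest in replicates 2 and 4 and lowest in replicate 3. The sum is weighted towards the highest genes, and single genes differed. Isg15 was lowest in replicate 3 at 315 TPM, whereas Oas2 was highest there at 127 TPM. None of the 20 was called as varying.

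Antigen presentation genes that IRF1 regulates stood high. Of 14, 13 reached 1 TPM, with a median of 333 TPM, and none of the 13 tested was called. B2m, the light chain of MHC class I, stood at 11258 ± 1096 TPM, and the heavy chain genes H2-K1 and H2-D1 at 4701 ± 239 and 3904 ± 148 TPM. Shared 31-mers were 22.8% for H2-K1 and 26.9% for H2-D1, and which genes share them was not recorded. Fragments that align to several genes are missing from these levels. Il15, a cytokine gene in the same list, had no fragment in any library.

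Cofactors of IRF proteins were all present (10 of 10 at 1 TPM or more, median 56.2 TPM). Def6, which encodes an exchange factor that binds IRF4, stood at 274 ± 15.03 TPM, and Swap70, its relative, was the lowest at 17.3 ± 1.97 TPM. Irf2bpl, a relative of the IRF2-binding corepressors, stood at 113, 140, 113 and 114 TPM in replicates 1 to 4. Fkbp4, an immunophilin gene whose product has been reported to bind IRF4 and inhibit its DNA binding, was the 1 cofactor of 10 tested that was called as varying beyond the trend, beside 0.813% of all tested genes. It stood at 82.2, 132, 74.9 and 83.5 TPM in replicates 1 to 4 (edgeR deviance test, adjusted p = 0.0475 over all genes). Replicate 2 stood apart for both Irf2bpl and Fkbp4. Without replicate 2 the adjusted edgeR p for Fkbp4 was 1.0, and without each of the other libraries it was 0.0653 to 0.231.

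The last list held genes regulated by IRF4 in T cells. Of 14, 11 reached 1 TPM, with a median of 12.4 TPM, below the 24.9 TPM median of protein coding genes at 1 TPM or more. The chemokine receptor gene Ccr8 stood highest at 249 ± 54.6 TPM, then the inhibitory receptor gene Ctla4 at 78.7 ± 13.6 TPM, while Il4 was the lowest with 4 fragments in all. Il9 and Il10, at 0.948 ± 0.547 and 0.946 ± 0.370 TPM and chosen after their values were seen, were the other 2 below 1 TPM. Prdm1, which encodes the repressor Blimp-1, stood at 37.7, 43.4, 53.1 and 33.4 TPM in replicates 1 to 4. By TPM this was the same order of libraries as Irf4, an order that 12.3% of all tested genes had. Ccr8 had the opposite order, at 260, 216, 199 and 321 TPM in replicates 1 to 4, and how common that order is was not computed. Neither Prdm1 nor Ccr8 was called as varying beyond the trend.

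From this list 2 of 11 tested genes were called as varying beyond the trend, Bcl6 and Il17f, beside 0.813% of all tested genes. Bcl6, which encodes the repressor that defines follicular helper T cells and opposes Blimp-1, stood at 31.7, 15.3, 18.9 and 36.4 TPM in replicates 1 to 4 (edgeR deviance test, adjusted p = 9.66e-05 over all genes). Replicates 1 and 4, the lower libraries for Irf4, were the higher ones for Bcl6, and how many tested genes share that pattern was not computed. The Th17 cytokine gene Il17f stood at 10.2, 7.04, 11.7 and 20.8 TPM in replicates 1 to 4 (edgeR deviance test, adjusted p = 0.0171 over all genes), with replicate 4 highest. Leaving out replicate 4 moved the adjusted edgeR p to 0.0653 for Bcl6 and to 1.0 for Il17f, and for Il17f it was also above 0.05 without replicate 1 (0.0511) or replicate 2 (0.213). What these libraries share with each other in Irf4, Prdm1, Bcl6 and Il17f was not tested.

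**Figure D5:**
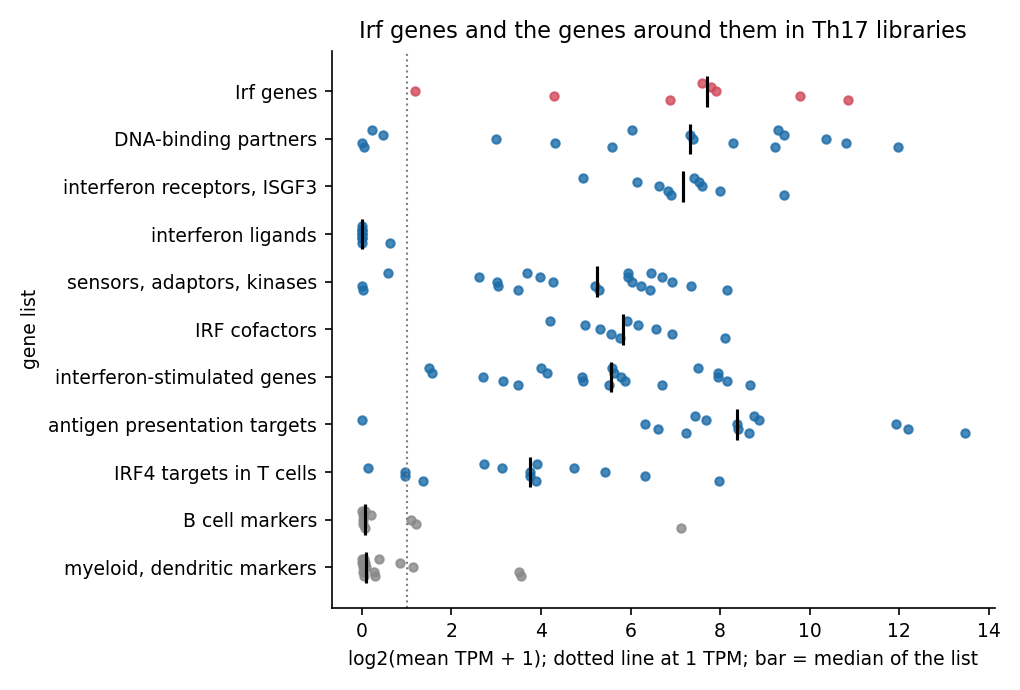
Mean level of every gene in the Irf family, the 8 gene lists around it and the B cell and myeloid marker lists, as log2(mean TPM + 1); points are genes, the black bar is the list's median and the dotted line marks 1 TPM. All 8 Irf genes and all 20 interferon-stimulated genes lie right of the line, whereas the interferon genes lie left of it and most B cell and myeloid markers do too.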

How the data were processed

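RNA-seq of 4 Th17 libraries of 1 group was analysed. The authors deposited raw fragment counts per gene from featureCounts 1.4.6-p4, with exons of GENCODE M13, counting read pairs with both ends mapped and reverse strandedness (option value 2), per the file headers. The assembly was mm10, per the labels, and STAR is named in the headers' alignment files, its version not given in the sources used here. The headers record no setting that counts multiply aligned fragments or those shared by overlapping genes, so these are missing from the counts, which lowers genes with near-identical copies.

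From the counts and the deposited union exon lengths, TPM and CPM were computed. Of 50600 identifiers, 50376 matched a symbol of GENCODE M21 and 224 did not (at most 0.00945% of a library's counts). Shared 31-mers were computed from M21 transcripts on both strands, so overlap with a gene on the opposite strand also counts as sharing. Library totals of 25847970 to 40652146 counts make 3 counts, the upper limit for a count of 0, equal to 0.0738 to 0.116 CPM; such limits cover counting error only, as no molecular identifiers were counted.

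Variation between libraries was tested with edgeR 4.0.16 (R 4.3.3): expression filter, TMM, trended dispersion, deviance against chi-square with 3 degrees of freedom, adjusted p under 0.05. With 1 group, no quasi-likelihood test of a coefficient was possible. The procedure was tested on simulated data. Pairs of members were compared by exact sign-flip permutation. Size factors of DESeq2 1.42.0, other filters, a common dispersion, other lengths, pseudocounts and thresholds, and each library left out were tried. Other steps used Python 3.11.15, scipy 1.17.1, numpy 2.4.6, matplotlib 3.10.9 and pandas 2.3.3.

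The members and gene lists were chosen with earlier results of these data known. Named are all members, of each pathway list its 3 highest genes and its lowest and every gene called, overlapping or nearest neighbours (not all printed), and the 2 protein coding genes most like each member; the cell type markers singled out and any other gene were chosen after their values were seen. Promoter sequences are from RefSeq (GRCm38.p6); protein sequences were not used here.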

Additional observations from a re-analysis of the deposited data

Results flagged for a closer look

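The genes examined were the members and the named genes of the lists that had a range. In 4 of these 55 genes, 1 library lay farther from the other 3 than the 95% critical gap for 4 samples. Chance gives about 1 in 20, but that rate does not hold for genes with few fragments, such as Il4 and Gzmk below. No Irf gene was among them. Irf2bpl stood at 139.5 TPM in replicate 2, against 113 to 114 TPM in the other libraries. Fkbp4 stood at 131.9 TPM in the same replicate 2, against 74.9 to 83.5 TPM elsewhere. Il4 stood at 0.430 TPM in replicate 3 and at 0 in the others, on 4 fragments in all. Gzmk stood at 0.0932 TPM in replicate 4 and at 0 in the others, on 1 fragment, so its flag was fixed in advance.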

How the results depend on the processing

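Without each library in turn the order held, 8 members reached 1 TPM, and 26 or 27 of 28 pairs kept 1 sign; at a threshold of 5 TPM 7 members remained. The order changed with fragments alone: by CPM 5 of 8 members kept their place (Irf8 and Irf9 then stood above Irf7). With longest transcripts Irf7 minus Irf8 reversed to -0.70 and the share of Irf4 was 39.0%; in fragments its share was 53.6%. Genes varying between libraries numbered 94, 256 with a common dispersion, and 35 to 60 with 1 library left out. Over 9 settings no Irf gene was called, the lowest adjusted edgeR p being 0.932; Irf5 was not tested where 1 CPM was required in every library. Fkbp4 was not called with DESeq2 size factors (0.0529), without the filter (0.108) or with a common dispersion (0.220). No paired comparison of groups was possible because the libraries form 1 group. Irf5, on 145 fragments, and genes with no fragment are limited by depth.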
